A study of Homo sapiens with 36 samples.

Results

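Claudins are the membrane proteins that give tight junctions their barrier and pore properties, and the set described here is 9 claudin genes that the nephron or its tumours are known to use: CLDN1, CLDN2, CLDN3, CLDN4, CLDN7, CLDN10, CLDN11, CLDN12 and CLDN16. They are 9 of 45478 genes in the deposited count table. The members were picked from their levels across the 12 groups of the study, where CLDN2 and CLDN16 separate the resistant states from each other. Their levels and their differences between cell states are therefore given as a description without a test. The rule of that choice names no antibody difference, so the antibody comparisons within a cell state were tested. The 12 groups do include the antibodies, and earlier results of these data were known when the members were chosen.

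RNA was sequenced from 2 human clear cell renal carcinoma lines, 786-O and A498, in 36 libraries. Each line was present in a sunitinib-resistant state, obtained by growth over months or passages in medium with the kinase inhibitor sunitinib (4 µM for 786-O and 2 µM for A498), and in a parental state. Every library came from cells given 1 of 3 antibodies against PD-L1, durvalumab, avelumab or atezolizumab, labelled as 10 mg/mL for 24 h, and every group held 3 libraries. The groups were therefore 786-O resistant, A498 resistant, A498 parental and 786-O parental cells, each with durvalumab, avelumab and atezolizumab. None of the 36 libraries came from cells without an antibody, so the antibodies are compared only with each other. No label states whether a group held independent cultures, and p-values therefore rest on the spread among these libraries, which may be technical.

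Library totals ran between 19994882 and 58122896 counts, with a median of 34595336. Each cell state carried a batch label of its own, so state and batch cannot be told apart in any difference between states. The libraries labelled A498 resistant stood apart from their label: HIF1A, which encodes an oxygen-sensing transcription factor, averaged 8.71 CPM (counts per 1000000 counts of the library) in 786-O resistant libraries, 8.99 in those labelled A498 resistant, 294 in A498 parental and 9.36 in 786-O parental libraries. Over 16629 genes their averaged profile had a correlation r of 0.989 with 786-O resistant, 0.960 with 786-O parental and 0.885 with A498 parental libraries. They are called by their label below, and the named genes are set against both parental states where the direction or size of a difference depends on the parental state used. PAX8, a renal lineage factor, was at 208 to 313 CPM in every library. Of 12 renal and carcinoma markers, 9, 9, 9 and 8 averaged at least 1 CPM in 786-O resistant, labelled A498 resistant, A498 parental and 786-O parental libraries. No leukocyte marker of 5 and no endothelial marker of 4 reached that level in any state, and their sums stayed at or below 1.17 and 0.994 CPM. Of 4 fibroblast markers, 2, 3, 1 and 2 did so in the same order of states. Their sums ran from 10.3 to 12.1, 25.3 to 28.6, 50.4 to 61.7 and 5.81 to 8.03 CPM, with COL1A1 leading in A498 parental libraries. Of the podocyte markers, WT1 averaged 11.2, 13.9, 0.0419 and 24.9 CPM, and the part of any marker in the claudin values was not tested.

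A claudin spans the membrane 4 times and pairs with claudins of the neighbouring cell, and the mix of claudins sets which ions pass between cells. CLDN2 forms a pore for cations and water and is known from the proximal tubule. CLDN16 works with CLDN19 in the thick ascending limb, where calcium and magnesium are reabsorbed between cells, and its loss causes a magnesium-wasting kidney disease. CLDN10 is made as an anion-pore and a cation-pore isoform, which gene counts do not separate. CLDN3, CLDN4 and CLDN7 are known from the distal nephron and collecting duct, CLDN1 from the lining of Bowman's capsule and as a sealing claudin of skin, CLDN12 as a claudin without the usual scaffold-binding tail, and CLDN11 from myelin and testis.

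On GRCh38, in the GENCODE 29 annotation, CLDN2 (ENSG00000165376.11) lies at chrX:106900164-106930861 on the plus strand. CLDN16 (ENSG00000113946.3) lies at chr3:190322541-190412143 on the plus strand and CLDN1 (ENSG00000163347.6) at chr3:190305701-190322475 on the minus strand, so that the annotated starts of both face away from each other across 65 bases. CLDN3 (ENSG00000165215.6) at chr7:73768997-73770270, minus strand, and CLDN4 (ENSG00000189143.9) at chr7:73799542-73832693, plus strand, are neighbours, and CLDN12 (ENSG00000157224.16) is on the same chromosome at chr7:90383721-90513402, plus strand. CLDN7 (ENSG00000181885.18) is at chr17:7259903-7263983, minus strand, CLDN10 (ENSG00000134873.10) at chr13:95433604-95579759, plus strand, and CLDN11 (ENSG00000013297.11) at chr3:170418865-170454733, plus strand. Exonic overlap with another gene touched 10.0% of the exonic bases of CLDN2, 12.3% of CLDN7, 46.1% of CLDN10, 18.3% of CLDN11 and 16.3% of CLDN12. No source used here gives the strand setting of the counting. The partners of CLDN11 and CLDN12, and AC003688.1 at CLDN7, lie on the same strand, where no strand setting separates the genes. Counts of these 5 genes are thus uncertain where the partner is expressed. GTPBP10, on the strand of CLDN12, averaged 15.8 CPM in 786-O resistant, 17.3 in labelled A498 resistant, 29.6 in A498 parental and 25.5 in 786-O parental libraries. Its share in the CLDN12 counts was not tested. RIPPLY1, which overlaps CLDN2 on the opposite strand, stayed between 0 and 0.163 CPM in all libraries, while DZIP1, opposite CLDN10, averaged 15.3, 18.2, 1.38 and 9.64 CPM in 786-O resistant, labelled A498 resistant, A498 parental and 786-O parental libraries.

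The start regions of CLDN2, CLDN16 and CLDN1 are shown because CLDN2 and CLDN16 set the libraries labelled A498 resistant apart from every other state, while CLDN1 shares the CLDN16 locus. All 9 genes matched a RefSeq promoter entry (GRCh38.p14), with 14 start sites in all, and each sequence is given 5′ to 3′ on the strand of its gene, up to the nearest annotated exon. The printed CLDN16 start, chr3:190290361, lies outside the GENCODE gene given above, on the far side of CLDN1. The other RefSeq start of CLDN16, chr3:190388163, lies inside that gene, and its window falls in a CLDN16 exon and is not printed. Capitals mark the GC box GGGCGG and the CDX-type core TTTAT on either strand.
CLDN1, gap to the CLDN16 gene, chr3:190322476-190322540, minus strand: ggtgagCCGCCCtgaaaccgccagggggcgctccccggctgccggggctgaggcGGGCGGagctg
CLDN16, upstream start, chr3:190290111-190290360, plus strand: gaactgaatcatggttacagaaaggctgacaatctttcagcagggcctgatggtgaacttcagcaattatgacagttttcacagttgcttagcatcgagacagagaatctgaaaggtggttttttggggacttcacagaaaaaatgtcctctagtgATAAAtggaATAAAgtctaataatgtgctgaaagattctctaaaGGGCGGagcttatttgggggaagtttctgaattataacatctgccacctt
CLDN2, first start, chrX:106899914-106900062, plus strand: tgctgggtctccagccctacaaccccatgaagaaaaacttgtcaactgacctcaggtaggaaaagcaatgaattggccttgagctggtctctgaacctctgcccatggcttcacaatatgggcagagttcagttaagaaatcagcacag
CLDN2, second start, chrX:106918110-106918359, plus strand: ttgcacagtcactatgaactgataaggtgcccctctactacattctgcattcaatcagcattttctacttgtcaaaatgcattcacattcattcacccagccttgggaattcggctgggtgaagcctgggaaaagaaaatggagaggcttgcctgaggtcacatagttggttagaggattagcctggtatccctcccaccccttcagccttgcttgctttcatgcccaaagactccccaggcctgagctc
The CLDN1 sequence held 2 GC boxes and the CLDN16 sequence 1 GC box and 2 CDX-type cores, while neither printed CLDN2 stretch held a motif reported here. The first CLDN2 stretch ends 101 bases before its start site, and in the bases not printed lies 1 CDX-type core, 69 to 73 bases upstream of the start. The motifs reported here, searched on both strands, were TTTAT, the core of CDX factors, and CACCTG, the E-box bound by Snail and ZEB repressors. Next to them stood GGGCGG, which Sp factors bind, TATAAA, which the basal machinery binds, AGGAAG, a core of ETS factors, and AACCGGTT, the grainyhead site. Over the 250 bases upstream of 35116 RefSeq starts, the share with a match was 32.7% for TTTAT, 17.5% for CACCTG, 42.6% for GGGCGG, 10.7% for TATAAA, 28.7% for AGGAAG and 0.117% for AACCGGTT. A match is a run of letters in these windows, not a site of binding.

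CLDN16 was highest in the libraries labelled A498 resistant, lower in 786-O resistant libraries, lower again in A498 parental and lowest in 786-O parental libraries. The lowest, median and highest library held 0.491, 0.923 and 1.12 CPM in 786-O resistant cells, and 10.9, 12.2 and 12.8 CPM in those labelled A498 resistant. In A498 parental cells they held 0.204, 0.281 and 0.457 CPM, and in 786-O parental cells 0.0490, 0.0709 and 0.163 CPM. No library of one state overlapped another state in CLDN16. In bulk libraries fewer expressing cells and less RNA per cell cannot be told apart. The means were 0.888 ± 0.195 in 786-O resistant, 12.03 ± 0.69 in labelled A498 resistant, 0.289 ± 0.0797 in A498 parental and 0.0844 ± 0.0384 CPM in 786-O parental libraries (SD, n = 9 each). On the log2 scale, after TMM scaling, CLDN16 was 3.22 ± 0.20 (SE) higher in 786-O resistant than in 786-O parental libraries, a 9.34-fold difference. Libraries labelled A498 resistant stood 5.30 ± 0.10 above A498 parental libraries, or 39.4-fold, and 6.97 ± 0.12 above 786-O parental libraries, or 126-fold. The 786-O parental level rested on 29 counts over 9 libraries, and its pooled value of 0.0825 CPM had an exact 95% Poisson interval of 0.0552 to 0.118 CPM, which covers counting error only. CLDN19, the partner of CLDN16 in the thick limb, had 14 counts over the 786-O resistant libraries, 0 counts over those labelled A498 resistant (which allows up to 0.0136 CPM), 2 over A498 parental and 0 over 786-O parental libraries (up to 0.00853 CPM). UMOD and SLC12A1, which encode uromodulin and the sodium-potassium-chloride cotransporter of the thick ascending limb, stayed at or below 0.0423 and 0.0905 CPM in every library.

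CLDN2 was highest in the libraries labelled A498 resistant. The lowest, median and highest library held 3.55, 4.48 and 7.21 CPM in 786-O resistant cells, and 35.1, 41.1 and 45.5 CPM in cells labelled A498 resistant. A498 parental libraries held 2.25, 2.90 and 4.25 CPM, and 786-O parental libraries 2.53, 5.63 and 10.1 CPM. The state labelled A498 resistant did not overlap any other state, whereas 786-O resistant and 786-O parental libraries overlapped, as did A498 parental and 786-O parental libraries. Means were 4.89 ± 1.37 in 786-O resistant, 40.6 ± 3.44 in labelled A498 resistant, 3.05 ± 0.56 in A498 parental and 5.58 ± 2.41 CPM in 786-O parental libraries (SD, n = 9 each). Libraries labelled A498 resistant were 3.64 ± 0.09 higher than A498 parental libraries in log2 (12.5-fold) and 2.80 ± 0.08 higher than 786-O parental libraries (6.99-fold). The difference between 786-O resistant and 786-O parental libraries was −0.26 ± 0.10. Set against the libraries labelled A498 resistant, 786-O resistant libraries were 8.38-fold lower in CLDN2 and 13.5-fold lower in CLDN16.

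CLDN4 and CLDN1 made up most of the claudin counts per length, and they moved apart between states. CLDN4, a claudin of the collecting duct, ran from 246 to 275 CPM (median 268) in 786-O resistant libraries and from 201 to 218 (median 206) in those labelled A498 resistant. It ran from 80.2 to 90.0 CPM (median 88.1) in A498 parental and from 164 to 193 CPM (median 178) in 786-O parental libraries. No state overlapped another in unscaled CPM of CLDN4, while the log2 differences given next follow TMM scaling. For labelled A498 resistant minus 786-O parental libraries that scaling lowered the log2 difference by 0.155. The log2 difference was 0.45 ± 0.02 (SE) between 786-O resistant and 786-O parental libraries and 1.16 ± 0.03 between labelled A498 resistant and A498 parental libraries, but 0.07 ± 0.02 between labelled A498 resistant and 786-O parental libraries.

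CLDN1, a sealing claudin, ran from 130 to 157 CPM (median 154) in 786-O resistant libraries and from 90.6 to 107 CPM (median 95.5) in those labelled A498 resistant. It ran from 172 to 202 CPM (median 192) in A498 parental and from 146 to 181 CPM (median 157) in 786-O parental libraries. The libraries labelled A498 resistant lay below all others, by a log2 difference of −1.09 ± 0.03 against A498 parental and −0.88 ± 0.03 against 786-O parental libraries. The 786-O resistant libraries differed from 786-O parental libraries by −0.21 ± 0.03, and their ranges overlapped. At the locus CLDN1 shares with CLDN16, the state with the highest CLDN16 was thus the one with the lowest CLDN1. CLDN12 varied least: it averaged 49.2 ± 3.78 CPM in 786-O resistant, 62.5 ± 1.75 in labelled A498 resistant, 51.4 ± 2.36 in A498 parental and 62.6 ± 3.85 CPM in 786-O parental libraries (SD, n = 9 each). Its log2 difference was −0.48 ± 0.02 between 786-O resistant and 786-O parental libraries and 0.19 ± 0.03 between labelled A498 resistant and A498 parental libraries, but −0.16 ± 0.03 between labelled A498 resistant and 786-O parental libraries, whose unscaled means of 62.5 and 62.6 CPM nearly coincide.

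**Figure D1:**
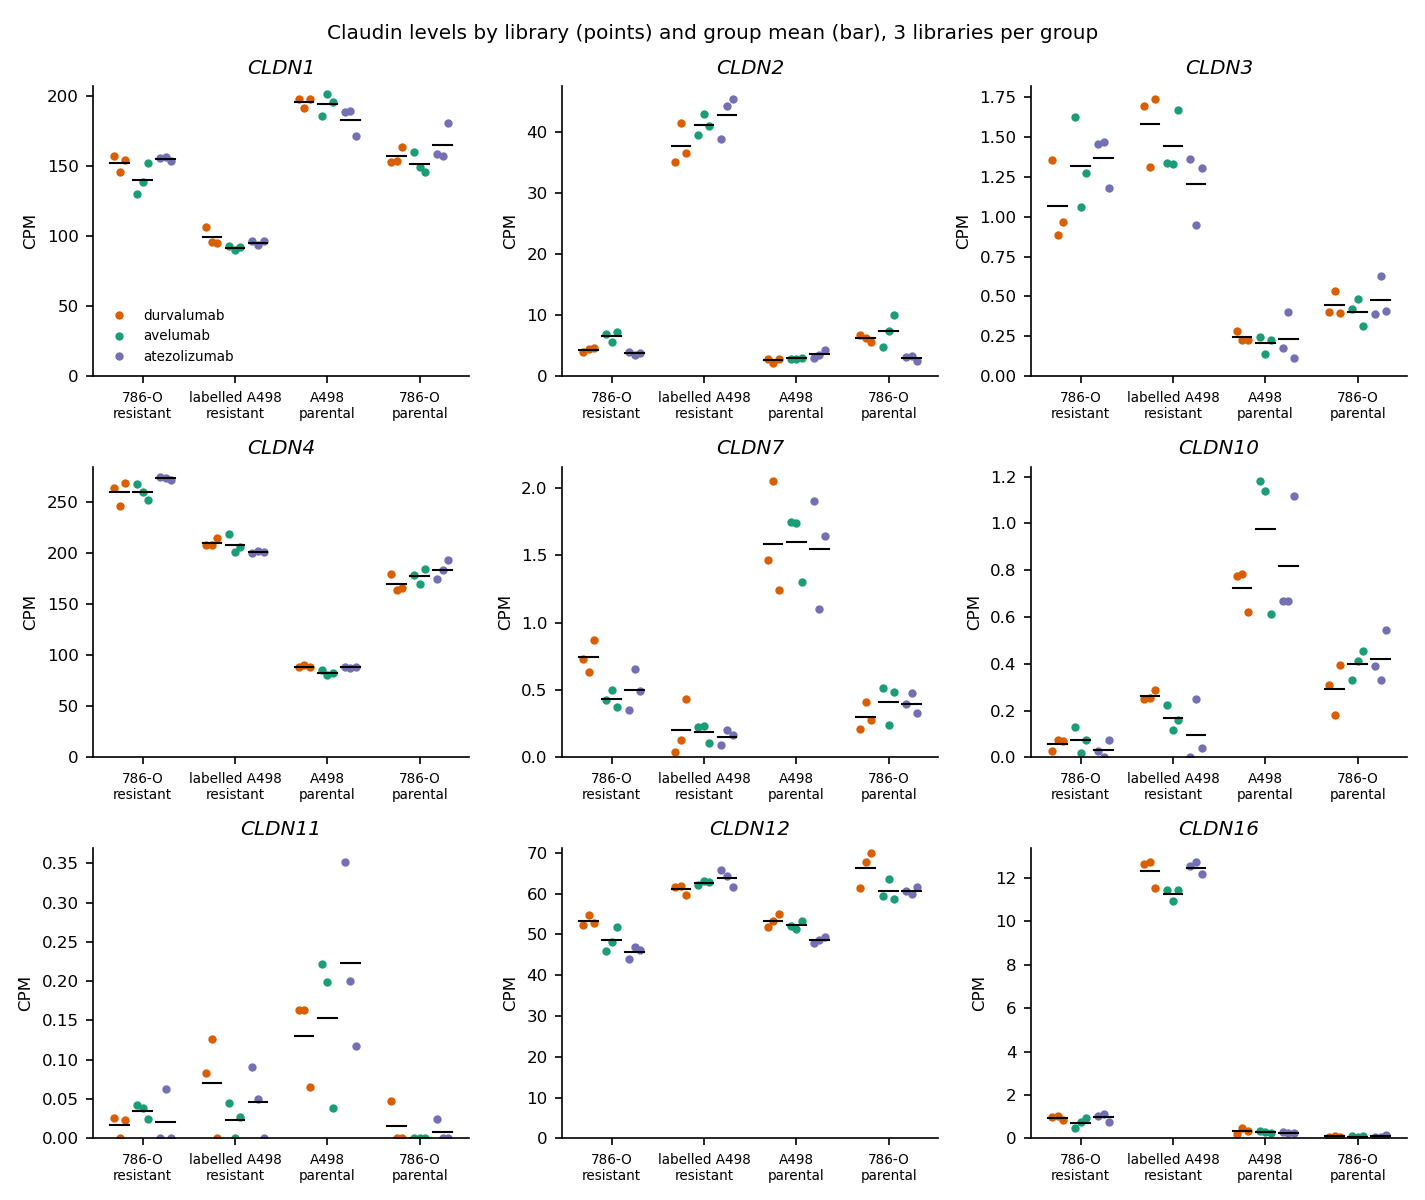
CPM of each of the 9 claudins on a linear axis of its own, 1 point per library and a bar at each group mean, by cell state and antibody. CLDN2 sits between 35.1 and 45.5 CPM and CLDN16 between 10.9 and 12.8 CPM for cells labelled A498 resistant, above every other library.

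CLDN3, CLDN7, CLDN10 and CLDN11 stayed low, at or below 2.05 CPM in every library. CLDN3, a barrier claudin of the distal nephron, averaged 1.25 ± 0.249 CPM in 786-O resistant and 1.41 ± 0.25 in labelled A498 resistant libraries, against 0.228 ± 0.0834 in A498 parental and 0.442 ± 0.0936 CPM in 786-O parental libraries (SD, n = 9 each). Both resistant states were above both parental states in every library: the log2 difference was 1.34 ± 0.14 for 786-O resistant minus 786-O parental and 2.52 ± 0.18 for labelled A498 resistant minus A498 parental libraries. CLDN3 did not follow its neighbour CLDN4 in the libraries labelled A498 resistant against 786-O parental, where CLDN3 was 1.51 ± 0.15 higher and CLDN4 differed by 0.07 ± 0.02. CLDN7, another claudin of the distal nephron, averaged 0.56 ± 0.175 in 786-O resistant, 0.18 ± 0.115 in labelled A498 resistant, 1.58 ± 0.32 in A498 parental and 0.37 ± 0.112 CPM in 786-O parental libraries. Its values were highest in A498 parental libraries, which no other state overlapped, while labelled A498 resistant and 786-O parental libraries overlapped. ELP5, which overlaps CLDN7 on the opposite strand, was also highest in A498 parental libraries, at 67.1 to 73.6 CPM (mean 70.0). It averaged 51.2 CPM in 786-O resistant, 52.4 in labelled A498 resistant and 52.7 in 786-O parental libraries. The share of ELP5 in the CLDN7 counts was not tested. CLDN10 averaged 0.0544 ± 0.0397 in 786-O resistant, 0.176 ± 0.103 in labelled A498 resistant, 0.84 ± 0.237 in A498 parental and 0.372 ± 0.103 CPM in 786-O parental libraries. It was lower in the resistant state of both pairs, by log2 differences of −2.84 ± 0.32 in 786-O and −2.49 ± 0.26 for labelled A498 resistant minus A498 parental libraries, with no overlap in either pair. Labelled A498 resistant minus 786-O parental libraries gave −1.35 ± 0.30, with overlap. CLDN11 had 74 counts in all: 9 over 786-O resistant, 10 over labelled A498 resistant, 52 over A498 parental and 3 over 786-O parental libraries. It did not pass the filter on low counts and has no fold change.

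The joint fit held 20752 genes that passed that filter, 8 of the claudins among them. In labelled A498 resistant against A498 parental libraries none of the 8 overlapped, where 63.5% of all genes did not overlap. In the other contrasts 5 of 8 did not overlap: the share of all genes was 50.3% for 786-O resistant against 786-O parental, 30.1% for 786-O resistant against labelled A498 resistant, 51.5% for labelled A498 resistant against 786-O parental and 61.7% for A498 parental against 786-O parental libraries. Since the members were chosen on these levels, nothing is read from those counts.

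**Figure D2:**
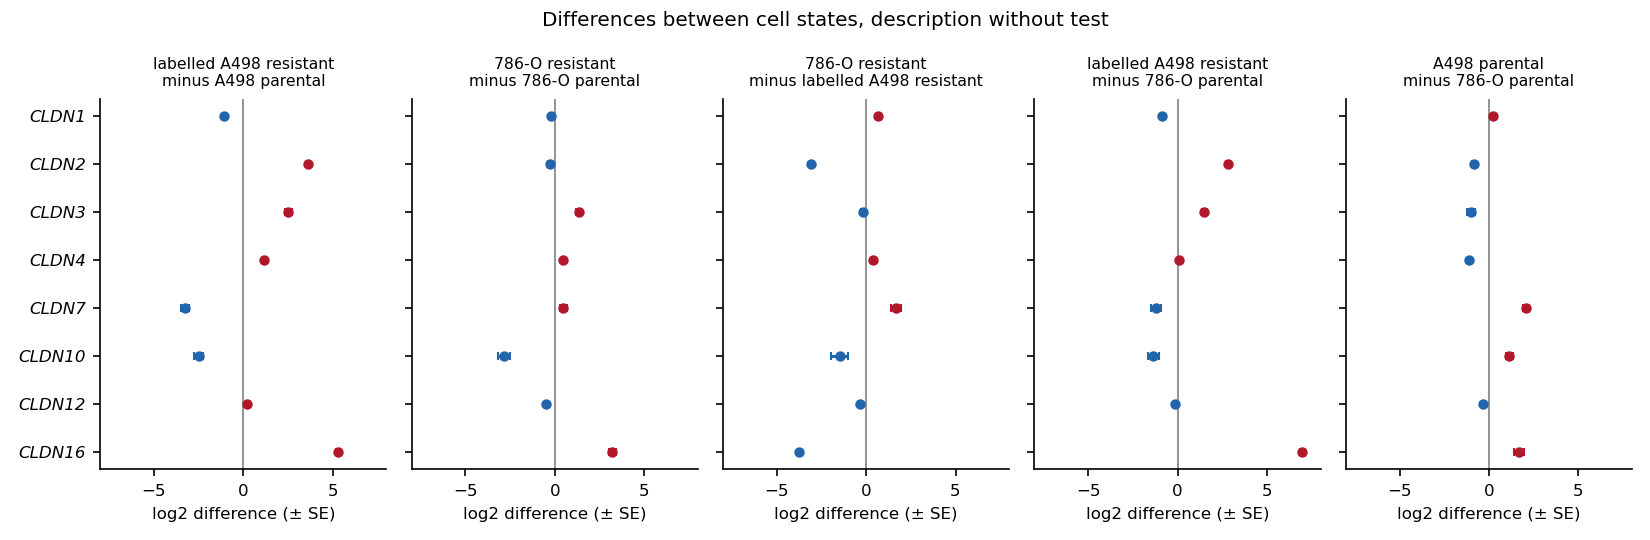
Log2 differences (TMM-scaled, points) with SE (bars) of the 8 claudins that passed the filter in 5 contrasts between cell states. CLDN16 has positive values in both resistant minus parental contrasts, 3.22 and 5.30, while CLDN2 has −0.26 and 3.64.

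Counts per kilobase of exon put the claudins on one scale within a library. Over the 22 claudins in the table the sum averaged 116 ± 3.5 CPM per kb in 786-O resistant, 103 ± 1.06 in labelled A498 resistant, 94.0 ± 2.53 in A498 parental and 98.0 ± 3.47 in 786-O parental libraries (SD, n = 9 each). The 9 claudins described here held 92.4%, 92.7%, 85.5% and 94.2% of that sum in the same order of states. In 786-O resistant libraries CLDN4 led with 48.5% of the sum, above CLDN1 with 35.1% and CLDN12 with 6.30%, and CLDN2 held 1.24%. In libraries labelled A498 resistant CLDN4 held 42.5%, CLDN1 25.2%, CLDN2 11.5%, CLDN12 8.98% and CLDN16 3.25%. CLDN2 was thus the third claudin per length in that state, with 11.9 CPM per kb, while CLDN16 with 3.36 and CLDN15 with 3.75 CPM per kb overlapped. In A498 parental libraries the order of the leading claudins was the other way round, with CLDN1 at 55.5% and CLDN4 at 19.6%. CLDN23 held 9.41% there and overlapped CLDN12 at 8.11%. In 786-O parental libraries CLDN1 at 44.0% and CLDN4 at 38.4% overlapped in their levels, and CLDN12 followed with 9.49%.

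**Figure D3:**
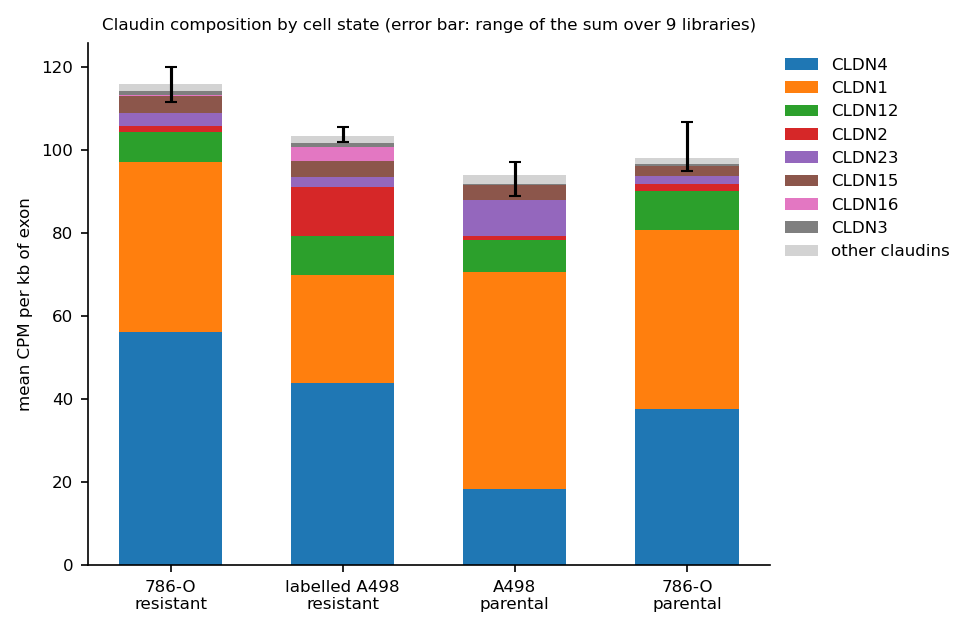
Stacked mean level (CPM per kb of exon) of each claudin in the 4 cell states, with the range of the sum over 9 libraries as a bar. CLDN4 is the largest block in both resistant states and CLDN1 in A498 parental libraries, and the CLDN2 block is 1.44 CPM per kb in 786-O resistant libraries and 11.9 in those labelled A498 resistant.

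The antibodies were compared with each other inside each state, where all libraries share a batch label. Each of the 12 comparisons was fitted over all genes of that state with the edgeR quasi-likelihood test and Benjamini-Hochberg adjustment, with an adjusted p of 0.05 as the threshold. The claudins gave 78 tests in these comparisons. Of these, 2 passed, both for CLDN2 in 786-O resistant cells, and 25 had an unadjusted p under 0.05. Over all genes, those with an unadjusted p under 0.05 ran from 612 of 17510 to 3279 of 17577 per comparison. The first was avelumab minus atezolizumab in labelled A498 resistant cells, the second the same pair in 786-O parental cells. The 10 comparisons with no claudin called held 18 unadjusted p-values under 0.05, and DESeq2 called CLDN2 in 2 of them, both in 786-O parental cells.

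In 786-O resistant cells CLDN2 was higher with avelumab than with either other antibody. The libraries held 3.97, 4.48 and 4.59 CPM with durvalumab, 6.87, 5.68 and 7.21 CPM with avelumab, and 3.93, 3.55 and 3.76 CPM with atezolizumab. Every avelumab library was above every library of the other antibodies. Avelumab exceeded atezolizumab by a log2 difference of 0.78 ± 0.11 (SE), or 1.72-fold, with a 95% interval of 0.55 to 1.01 and an adjusted p of 0.000605 in edgeR, in a comparison that called 1.2% of all genes. Durvalumab was lower than avelumab by a log2 difference of −0.60 ± 0.11, or 1.51-fold, with an interval of −0.82 to −0.37 and an edgeR adjusted p of 0.0111, where 0.387% of genes were called. This second call was lost without avelumab replicate 1 or replicate 3 (adjusted p at most 0.0726), and in one edgeR fit of all 36 libraries (0.0722). Durvalumab and atezolizumab differed by 0.18 ± 0.12, with an interval of −0.06 to 0.43 and an edgeR adjusted p of 0.543, in a comparison where no gene was called and 2251 genes had an unadjusted p under 0.05.

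CLDN2 varied most with the antibody in 786-O parental cells, yet did not pass the test there. The libraries held 6.86, 6.32 and 5.63 CPM with durvalumab, 4.85, 7.47 and 10.1 CPM with avelumab, and 3.11, 3.39 and 2.53 CPM with atezolizumab. All atezolizumab libraries were below all others, and the avelumab libraries were spread over a wider range than those of any other group of that state. Avelumab minus atezolizumab was 1.30 ± 0.28 in log2 (95% interval 0.64 to 1.97), with an edgeR adjusted p of 0.0541, where 4.34% of genes were called. Durvalumab minus atezolizumab was 1.05 ± 0.29 (0.37 to 1.73), with an edgeR adjusted p of 0.154 and 1.82% of genes called. Without avelumab replicate 1 the avelumab minus atezolizumab difference was 1.51 with an edgeR adjusted p of 2.45e-05, and without avelumab replicate 3 it was 1.06 with 0.00865. Durvalumab minus atezolizumab, at 1.05 in both cases, also passed without avelumab replicate 1 (edgeR adjusted p = 0.000901) or replicate 3 (0.00657). Durvalumab minus avelumab was −0.25, with an edgeR adjusted p of 0.761 and 0% of genes called. With DESeq2 avelumab minus atezolizumab passed with an adjusted p of 0.00038, and durvalumab minus atezolizumab passed with 0.0148.

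In A498 parental cells mean CLDN2 was highest with atezolizumab, and no comparison passed the test. The libraries held 2.77, 2.25 and 2.84 CPM with durvalumab, 2.91, 2.88 and 3.02 CPM with avelumab, and 2.99, 3.54 and 4.25 CPM with atezolizumab. Durvalumab minus atezolizumab was −0.47 ± 0.14 (95% interval −0.75 to −0.19) with an edgeR adjusted p of 0.0621 and 2.8% of genes called (−0.58 and 0.0294 without atezolizumab replicate 1), and avelumab minus atezolizumab was −0.31 ± 0.14 with 0.233 and 3.39% called. Durvalumab minus avelumab was −0.15 with an edgeR adjusted p of 0.917 and 0.0599% called. In libraries labelled A498 resistant CLDN2 was at 35.1, 41.6 and 36.6 CPM with durvalumab, 39.6, 42.9 and 41.1 CPM with avelumab, and 38.9, 44.3 and 45.5 CPM with atezolizumab, and the 3 groups overlapped. None of the differences there passed, with −0.18 ± 0.06 for durvalumab minus atezolizumab (edgeR adjusted p = 0.64) as the furthest from 0. Of all genes in that state, 0.00571% were called for durvalumab minus atezolizumab, 0.0114% for durvalumab minus avelumab and 0% for avelumab minus atezolizumab.

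The differences of CLDN2 between antibodies were not the same in the parental lines. Avelumab minus atezolizumab in A498 parental cells, minus the same difference in 786-O parental cells, was −1.62 ± 0.28 in log2, with an edgeR adjusted p of 0.00258 in the joint fit of 36 libraries, where 1.07% of genes were called. For durvalumab minus atezolizumab the same comparison gave −1.51 ± 0.29, with an edgeR adjusted p of 0.00665 and 0.679% of genes called. The second value missed the threshold without A498 parental atezolizumab replicate 3 (−1.37, edgeR adjusted p = 0.0522). Between 786-O resistant and 786-O parental cells the antibody differences of CLDN2 were not shown to differ, at −0.51 ± 0.25 for avelumab minus atezolizumab (edgeR adjusted p = 0.292, 2.66% of genes called) and −0.85 ± 0.26 for durvalumab minus atezolizumab (0.201, 0.111% called). For durvalumab minus avelumab the value was −0.34 (0.619, 0.236% called), and for the same pair between the parental lines it was 0.10 (0.996, 0.13% called). Between labelled A498 resistant and A498 parental cells the values were 0.26 for avelumab minus atezolizumab (0.0626% of genes called), 0.29 for durvalumab minus atezolizumab (0.308%) and 0.03 for durvalumab minus avelumab (0%), and none passed. Without 786-O parental avelumab replicate 1 the avelumab minus atezolizumab value for 786-O resistant minus 786-O parental cells was −0.71, with an edgeR adjusted p of 0.0293. Of 72 such tests of the claudins over 9 comparisons 2 passed, and 12 had an unadjusted p under 0.05. Over all 20752 genes, 1497 to 3645 per comparison had an unadjusted p under 0.05. The joint fit also tested CLDN3, CLDN7, CLDN10 and CLDN16 in states where they did not pass the filter on their own. Their tests rest on few counts there: CLDN16 had 87 counts over A498 parental and 29 over 786-O parental libraries.

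CLDN16 did not pass the test in any antibody comparison. In 786-O resistant cells it was at 0.991, 1.03 and 0.848 CPM with durvalumab, 0.491, 0.770 and 0.923 CPM with avelumab, and 1.05, 1.12 and 0.762 CPM with atezolizumab. The avelumab libraries overlapped the others, and avelumab minus atezolizumab was −0.45 ± 0.24 (95% interval −0.94 to 0.05) with an edgeR adjusted p of 0.384. In libraries labelled A498 resistant it was at 12.7, 12.7 and 11.5 CPM with durvalumab, 11.5, 10.9 and 11.5 CPM with avelumab, and 12.5, 12.8 and 12.2 CPM with atezolizumab. Every avelumab library there was below every library of the other antibodies, narrowly so against durvalumab (11.47 against 11.53 CPM). Avelumab minus atezolizumab there was −0.14 ± 0.07, with an edgeR adjusted p of 1.00. CLDN16 did not pass the filter on low counts in either parental state and was not tested there. Of the 78 antibody differences of all claudins, 57 were smaller than 0.2 in log2.

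**Figure D4:**
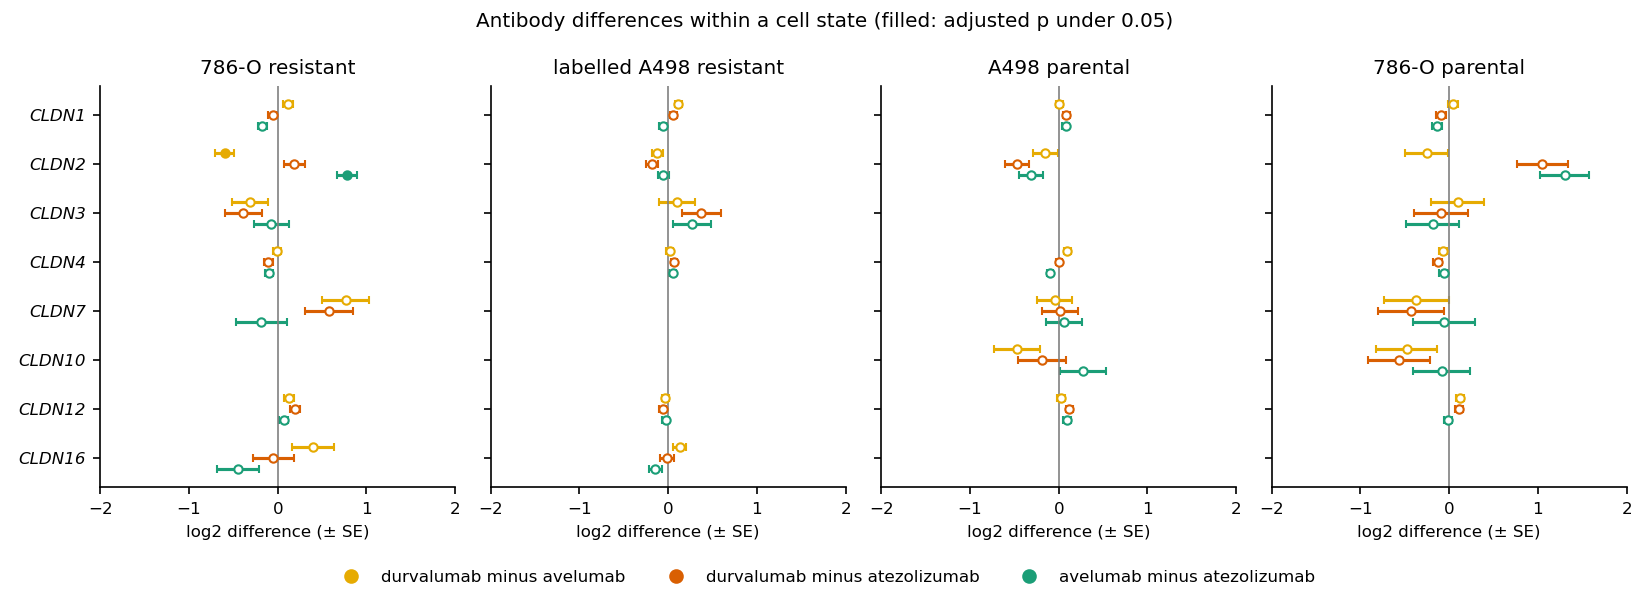
Log2 differences between antibodies (points, with SE as bars, filled where the adjusted p is under 0.05) for each claudin tested, by cell state. CLDN2 lies at 0.78 and −0.60 for the called comparisons in 786-O resistant cells, at 1.30 and 1.05 in 786-O parental cells, and below 0 in A498 parental cells.

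The other genes of the tight junction were taken from lists of 93 genes that are no members of the claudin set, and 73 passed the filter. They were tested between states with the edgeR quasi-likelihood test, adjusted over all 20752 genes. In 786-O resistant against 786-O parental libraries 41 rose and 24 fell, where 81.4% of all genes were called. In labelled A498 resistant libraries 34 rose and 27 fell against A498 parental (86% called), and 45 rose and 19 fell against 786-O parental libraries (79.5%). For 786-O resistant against labelled A498 resistant libraries 25 were higher and 28 lower (65.9%), and for A498 parental against 786-O parental libraries 34 were higher and 32 lower (85.2%). With most genes called in these contrasts, a call says little about a list, and the sizes matter more.

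Of 7 other claudins tested of 13 in the table, 4 rose and 2 fell in 786-O resistant against 786-O parental libraries. Of all genes, 81.4% were called there. The largest rises by log2 were CLDN18, known from stomach and lung, with 1.38 ± 0.16 (1.10 against 0.387 CPM), and CLDN9 with 0.96 ± 0.14 (1.05 against 0.504 CPM). CLDN15, a cation-pore claudin of the gut, rose by 0.51 ± 0.05 (11.5 against 7.33 CPM). In labelled A498 resistant against A498 parental libraries 1 rose and 2 fell, where 86% of all genes were called. Among those that fell was CLDN23, to 5.10 CPM against 19.2 CPM, a log2 difference of −2.001 ± 0.056. CLDN23 was also 2.15 ± 0.05 higher in A498 parental than in 786-O parental libraries, and 0.15 ± 0.07 higher in labelled A498 resistant than in 786-O parental libraries (edgeR adjusted p = 0.0344). The edgeR adjusted p of the other claudin differences named here was at most 2.33e-08.

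Among 10 membrane proteins of the junction, 7 rose and 3 fell in both resistant states against their parental label. Of all genes, 81.4% were called in the 786-O contrast and 86% in labelled A498 resistant against A498 parental libraries. The median log2 difference of the 10 was 1.20 in 786-O and 1.24 for labelled A498 resistant minus A498 parental libraries, beside 0.03 and 0.00 over all genes. LSR, the angulin of tricellular corners, rose to 132 CPM in 786-O resistant against 11.3 CPM in 786-O parental libraries, a log2 difference of 3.43 ± 0.03. JAM2, an adhesion molecule of the junction, rose by 2.69 ± 0.12 in 786-O resistant libraries and by 2.42 ± 0.17 in labelled A498 resistant against A498 parental libraries. CRB3, a polarity protein of the apical membrane, rose by 1.62 ± 0.06 and 3.22 ± 0.07 in the same contrasts. Against 786-O parental libraries, those labelled A498 resistant were 1.59 ± 0.14 higher in JAM2 and 1.47 ± 0.06 higher in CRB3. ILDR2, another angulin, was at 32.5 CPM in libraries labelled A498 resistant against 1.83 CPM in A498 parental libraries, but at 1.83 CPM in A498 parental against 41.9 CPM in 786-O parental libraries, so that the A498 parental state stood alone. ILDR2 was 0.52 lower in labelled A498 resistant than in 786-O parental libraries on the log2 scale. CXADR, the coxsackie and adenovirus receptor of the junction, was 3.76 ± 0.17 higher in labelled A498 resistant than in 786-O parental libraries (2.51 against 0.164 CPM) and 1.93 lower in 786-O resistant than in labelled A498 resistant libraries on the log2 scale.

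Occludin, encoded by OCLN, was scarce, with means of 0.375, 0.248, 1.23 and 0.113 CPM in 786-O resistant, labelled A498 resistant, A498 parental and 786-O parental libraries. Its log2 difference was 1.56 in 786-O resistant minus 786-O parental libraries and −2.41 in labelled A498 resistant minus A498 parental libraries, but 0.94 in labelled A498 resistant minus 786-O parental libraries, and all 3 passed the edgeR test. MARVELD2, which encodes tricellulin, averaged 5.49, 4.79, 5.90 and 2.82 CPM in the same order of states. TJP1, the scaffold ZO-1 that binds most claudins, averaged 134, 170, 83.2 and 112 CPM. TJP1 was 0.12 higher in 786-O resistant than in 786-O parental libraries and 0.93 higher in labelled A498 resistant than in A498 parental libraries in log2, and 0.44 higher in labelled A498 resistant than in 786-O parental libraries, and all 3 passed the test.

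Of 23 scaffold and polarity genes, 11 rose and 10 fell in 786-O resistant against 786-O parental libraries, where 81.4% of all genes were called. In labelled A498 resistant against A498 parental libraries 14 rose and 8 fell, where 86% of all genes were called. CGN, which encodes cingulin, rose by 1.87 ± 0.10 and AMOTL2, an angiomotin, by 1.09 ± 0.02 in 786-O resistant libraries. AMOTL1, another angiomotin, was at 40.6 CPM in libraries labelled A498 resistant against 0.297 CPM in A498 parental libraries, a log2 difference of 6.99 ± 0.07, while 786-O parental libraries held 31.2 CPM. PARD6B, a polarity scaffold, was at 5.26 CPM in 786-O resistant libraries against 15.98 CPM in those labelled A498 resistant, a log2 difference of −1.59 ± 0.05, in the same direction as CLDN2 and CLDN16 in that contrast. TJP3, the scaffold ZO-3, fell by 1.64 in labelled A498 resistant against A498 parental libraries, but was 2.34 ± 0.35 higher there than in 786-O parental libraries (0.377 against 0.0694 CPM).

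Of 6 membrane binders and protease genes tested, SPINT1 and EPCAM moved most in 786-O resistant against 786-O parental libraries, and SPINT1 and SPINT2 in labelled A498 resistant against A498 parental libraries. SPINT1, an inhibitor of the matriptase that can cleave EPCAM, was at 101 CPM in 786-O resistant against 5.73 CPM in 786-O parental libraries (4.01 ± 0.04 in log2) and at 26.6 CPM in labelled A498 resistant against 0.222 CPM in A498 parental libraries (6.83 ± 0.09). Against 786-O parental libraries those labelled A498 resistant were 2.06 ± 0.05 higher. EPCAM, which binds and stabilises CLDN1 and CLDN7, was at 0.640 CPM in 786-O resistant against 5.22 CPM in 786-O parental libraries, a log2 difference of −3.16 ± 0.11. It fell by 0.71 in labelled A498 resistant against A498 parental libraries, with an edgeR adjusted p of 0.00944, and by 4.40 against 786-O parental libraries. SPINT2, the sister inhibitor, fell by 0.57 in 786-O resistant libraries and rose by 3.45 in labelled A498 resistant against A498 parental libraries, but was lower there than in 786-O parental libraries (79.8 against 112 CPM, −0.64 ± 0.03).

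Of 14 transport genes of the distal nephron 7 passed the filter. FXYD2, the gamma subunit of the sodium pump and a gene of magnesium handling, fell to 1.29 CPM in 786-O resistant against 4.21 CPM in 786-O parental libraries (−1.83 ± 0.08 in log2) and rose to 1.94 CPM in labelled A498 resistant against 0.0969 CPM in A498 parental libraries (4.16 ± 0.18). Against the 4.21 CPM of 786-O parental libraries, FXYD2 was lower in those labelled A498 resistant (−1.28 ± 0.08). EGF, which in the kidney stimulates the magnesium channel TRPM6, was 0.57 ± 0.07 higher in 786-O resistant than in 786-O parental libraries and 1.33 ± 0.07 higher in labelled A498 resistant than in 786-O parental libraries. EGF was lower in labelled A498 resistant than in A498 parental libraries, at 5.72 against 6.43 CPM (−0.25 ± 0.06, edgeR adjusted p = 0.000242). TRPM7, a magnesium channel, rose by 0.59 ± 0.03 in 786-O resistant libraries and by 0.38 ± 0.03 in labelled A498 resistant against A498 parental libraries. CNNM2, a magnesium transport protein, rose by 0.45 ± 0.02 and 0.36 ± 0.02 in those contrasts. Against 786-O parental libraries, those labelled A498 resistant were 0.83 ± 0.03 higher in TRPM7 and 0.54 ± 0.02 higher in CNNM2. The edgeR adjusted p was at most 6.55e-10 in the other contrasts named for these 4 genes.

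Of 25 regulators of claudin genes or proteins 20 passed the filter. In 786-O resistant against 786-O parental libraries 11 rose and 6 fell, where 81.4% of all genes were called. In labelled A498 resistant against A498 parental libraries 5 rose and 10 fell, where 86% of all genes were called. ELF3, an ETS factor of epithelia, was at 50.9 CPM in 786-O resistant against 13.1 CPM in 786-O parental libraries (1.82 ± 0.05 in log2), and KLF4, a factor of epithelial differentiation, was at 48.6 against 17.4 CPM. SNAI1, a repressor of claudin genes, fell in both resistant states, to 4.67 CPM in 786-O resistant against 11.4 CPM in 786-O parental libraries and to 5.63 CPM in labelled A498 resistant against 45.3 CPM in A498 parental libraries. It was 1.17 lower in labelled A498 resistant than in 786-O parental libraries on the log2 scale. SNAI2, its relative, rose by 1.97 ± 0.04 in labelled A498 resistant against A498 parental libraries and by 0.14 ± 0.03 against 786-O parental libraries. HNF4A, a factor of the proximal tubule, fell by 3.75 ± 0.15 in labelled A498 resistant against A498 parental libraries, but was higher there than in 786-O parental libraries (0.424 against 0.0159 CPM, 4.47 ± 0.49). ZEB1, a repressor of epithelial genes, differed by −0.03 between 786-O resistant and 786-O parental libraries (edgeR adjusted p = 0.38), and with unscaled library totals this log2 difference turned to 0.10. GRHL2, a grainyhead factor known to drive CLDN3 and CLDN4 in mouse epithelium, had 26 counts over the 786-O resistant libraries and 0 counts over each other state, which allows up to 0.0136, 0.00984 and 0.00853 CPM in labelled A498 resistant, A498 parental and 786-O parental libraries.

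**Figure D5:**
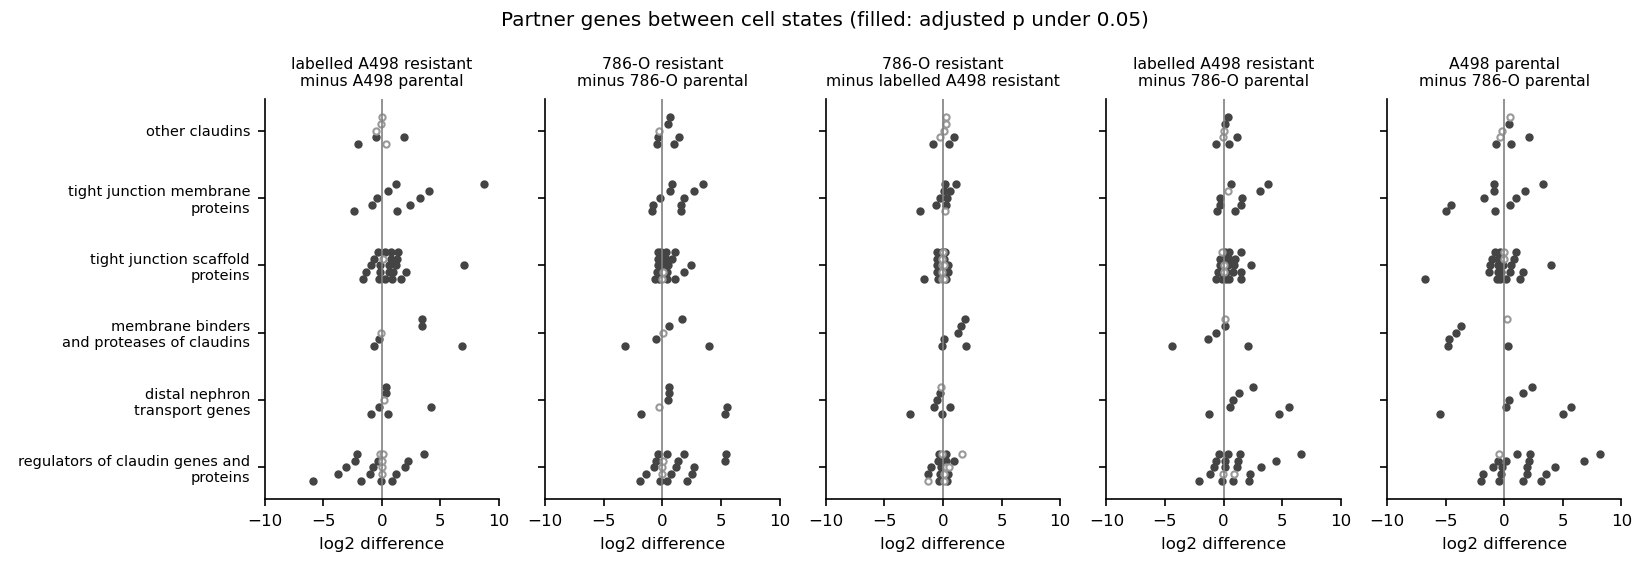
Log2 differences (TMM-scaled) of the listed partner genes of the claudins in contrasts between cell states, by list, 1 point per gene, filled where the adjusted p is under 0.05. For 786-O resistant minus 786-O parental libraries LSR lies at 3.43, SPINT1 at 4.01 and EPCAM at −3.16, and the points further right belong to genes under 1 CPM in both states.

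Genes of the lists were also compared between antibodies. In 786-O resistant cells, where CLDN2 was called, ELF3 was also called, and it followed the same order of antibodies. ELF3 held 49.8, 44.4 and 47.2 CPM with durvalumab, 67.5, 61.8 and 59.2 CPM with avelumab, and 45.5, 39.5 and 43.4 CPM with atezolizumab. Avelumab minus atezolizumab was 0.53 ± 0.06 in log2 with an edgeR adjusted p of 0.000118, and durvalumab minus avelumab was −0.42 with 0.00212. Of all genes, 1.2% and 0.387% were called in these comparisons. A link between ELF3 and CLDN2 was not tested. PARD6B rose by 0.41 (edgeR adjusted p = 0.0468) and SPINT1 fell by 0.20 (0.0361) with avelumab against atezolizumab in these cells. In 786-O parental cells ELF3 was 0.28 higher with avelumab (edgeR adjusted p = 0.0228) and 0.28 higher with durvalumab (0.044) than with atezolizumab. Both comparisons share the atezolizumab libraries, and they called 4.34% and 1.82% of all genes. In A498 parental cells KLF5 was 0.24 and KLF4 0.21 higher with avelumab than with atezolizumab, and 0.25 and 0.23 higher with durvalumab than with atezolizumab. These calls also share the atezolizumab libraries, in comparisons that called 3.39% and 2.8% of all genes. In libraries labelled A498 resistant edgeR called 0 of 63 list genes in any antibody comparison. An unadjusted p under 0.05 was found for 3 to 7 of them, beside 612 to 1531 of all 17510 genes.

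The genes most like CLDN2 over the 12 group means were HOGA1, ZBED3, ACBD5, HNRNPH2 and BIVM, with Pearson r of 0.992, 0.990, 0.984, 0.984 and 0.980 of mean log2 CPM among 16835 genes. Those most like CLDN16 were SP100, BPIFA2, FBXL17, SLC39A1 and LRRC7, with r of 0.992, 0.991, 0.990, 0.989 and 0.988. The value r does not compare the size of differences. Group means ran from 46.3 to 73.4 CPM for ACBD5 and from 2.62 to 42.9 CPM for CLDN2. They ran from 68.9 to 157 CPM for SP100, 0 to 1.73 CPM for BPIFA2 and 0.0758 to 12.5 CPM for CLDN16. CLDN2 and CLDN16 correlated with each other with r = 0.844. The 12 points share the libraries and fall into 4 states, and 46 and 106 genes reached 0.95 with CLDN2 and CLDN16, so these values describe a pattern between states only.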

How the data were processed

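Polyadenylated RNA was sequenced from 36 libraries with a stranded kit, per the labels' protocols. The deposited values are raw counts per gene; per the submitters' processing notes the authors used bcl2fastq 2.19.0, Trimmomatic 0.36.6, HISAT2 2.1.0, featureCounts 1.6.3 and GRCh38, with annotation release and strand setting not given in the sources used here. Groups came from the labels. CPM is per 1000000 of a library's counts without scaling, and log2 differences follow TMM scaling. Genes passed filterByExpr (minimum count 10). Tests used edgeR 4.0.16 (glmQLFit, glmQLFTest; R 4.3.3) with Benjamini-Hochberg adjustment over all genes: within each state for antibodies, and in 1 fit of 36 libraries for states and for differences of antibody differences. DESeq2 1.42.0 was an alternative. The code was tested on simulated data. Lengths and overlaps came from GENCODE 29, matched on gene ID without version.

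Members and lists were chosen with earlier results of these data known. All 9 claudins were named. From each list, up to 4 called genes per contrast with the largest log2 difference and at least 1 CPM were eligible, besides OCLN, TJP1, MARVELD2, EPCAM, GRHL2 and ZEB1. Some listed genes are not reported here. Intervals on counts cover counting error only. Unscaled totals moved all log2 differences by −0.027 to 0.155. Other alternatives were no filter, a stricter filter, a replicate block and leaving out each library.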

Additional observations from a re-analysis of the deposited data

Results flagged for a closer look

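The antibody difference of CLDN2 differed between the parental lines, by a test of that difference in edgeR. For avelumab minus atezolizumab, A498 parental minus 786-O parental was −1.62 in log2, and for durvalumab minus atezolizumab it was −1.51. CLDN2 was lower with both antibodies than with atezolizumab in A498 parental cells (−0.31 and −0.47) and higher in 786-O parental cells (1.30 and 1.05), none of which passed the edgeR threshold within its own state. Both values share the atezolizumab libraries of each line, and line and batch label cannot be told apart.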

How the results depend on the processing

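CLDN2 kept its avelumab minus atezolizumab call in 786-O resistant cells under every alternative run, with log2 values of 0.72 to 0.87 over the libraries left out. The count of claudins called per comparison changed as follows, and the cause was not tested. Without a filter it was 2 for that comparison (CLDN1 added, −0.17, edgeR adjusted p = 0.0469), 2 for the difference of avelumab minus atezolizumab between A498 parental and 786-O parental cells (CLDN1 added, 0.23, 0.0281), 1 for durvalumab minus atezolizumab in A498 parental cells (CLDN2, 0.0386), and 1 each for avelumab minus atezolizumab (CLDN1) and durvalumab minus atezolizumab (CLDN4) in 786-O parental cells. In 786-O parental cells the stricter filter called 1 claudin for avelumab minus atezolizumab (CLDN2, 0.0429), and DESeq2 and the single fit of 36 libraries called 1 each (CLDN2) for avelumab minus atezolizumab and durvalumab minus atezolizumab. The single fit called 0 for durvalumab minus avelumab in 786-O resistant cells.

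Leaving out 1 library at a time gave counts of 1 to 2 for avelumab minus atezolizumab and 0 to 1 for durvalumab minus avelumab in 786-O resistant cells, 0 to 1 for durvalumab minus atezolizumab in A498 parental cells, and 0 to 1, 0 to 2 and 0 to 1 for avelumab minus atezolizumab, durvalumab minus atezolizumab and durvalumab minus avelumab in 786-O parental cells. The count was 0 to 1 for the difference of durvalumab minus atezolizumab between the parental lines and for that of avelumab minus atezolizumab between 786-O resistant and 786-O parental cells. The durvalumab minus avelumab differences of CLDN2, which were not called, changed sign: between labelled A498 resistant and A498 parental cells the value was −0.00045 without a filter and −0.056 to 0.089 with libraries left out, and between A498 parental and 786-O parental cells −0.13 to 0.30.

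With unscaled totals the log2 difference of ZEB1 changed sign in 2 contrasts, from below 0 with TMM scaling. It became 0.10 for 786-O resistant minus 786-O parental and 0.050 for labelled A498 resistant minus 786-O parental libraries. No claudin difference between states reversed in 279 alternatives or in 720 with a library left out, and 9 and 5 of them moved by more than 1 SD. Partner gene counts stayed within 1.5 times of those reported. Correlations of same-numbered libraries within a state ran from −0.079 to 0.088. They were not set against differently numbered libraries, so a pairing by replicate number was not excluded. For avelumab minus atezolizumab the replicate as a block changed the genes called from 227 to 410 in 786-O resistant cells. The count went from 763 to 438 in 786-O parental and from 623 to 470 in A498 parental cells, and stayed at 0 in labelled A498 resistant cells. With the replicate as a block no call of a claudin changed, and CLDN2 gave 0.78 (edgeR adjusted p = 8.96e-05) and −0.60 (0.00265) in 786-O resistant cells. Depth limits CLDN10, CLDN11 and CLDN16: CLDN16 was not tested for the antibody within either parental state, and its tests in the joint fit rest on few counts there.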
